A study of Mus musculus with 15 samples.

Results

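The 10 genes described here encode acute phase proteins, plasma proteins that the liver secretes in changed amounts during inflammation. They were taken from the raw count table by gene symbol and are Saa1, Saa2, Saa3, Orm1, Orm2, Hp, Lcn2, Serpina3n, Itih4 and Crp, that is 10 of the 26264 genes in the table, and all 10 passed the filter on low counts. The study sequenced polyadenylated RNA of mouse liver from a high-fat diet model of MASLD (metabolic dysfunction-associated steatotic liver disease), in which animals received either resmetirom, an agonist of the thyroid hormone receptor beta, or Gc337, an antisense oligonucleotide against the kinase gene Stk25. The 15 libraries fell into 5 groups of 3. The group SD-NS is the only group whose label does not carry HFD. The other 4 groups (HFD-NS, HFD-Res, HFD-338, HFD-337) share the high-fat diet, and HFD-NS is the comparator that shares the letters NS with SD-NS. The letters SD and NS and the number in HFD-338 are not spelled out in the labels, and HFD-337 is read here as the Gc337 group by its number. Strain, sex, age, dose and duration are not given in the sources used here. The labels number the libraries but do not say that each came from a different mouse, so all p-values measure the spread between these samples.

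Acute phase proteins are made mainly by hepatocytes, in which IL-6 family cytokines act through gp130 and STAT3, and IL-1 and TNF act through NF-kappaB and C/EBP factors. Saa1 and Saa2 encode the serum amyloid A that circulates on high-density lipoprotein, and Saa3 encodes a form that macrophages and adipocytes also make. The orosomucoids (Orm1, Orm2) bind drugs and lipids, haptoglobin (Hp) captures free haemoglobin, lipocalin 2 (Lcn2) binds bacterial siderophores, Serpina3n inhibits serine proteases, Itih4 is a substrate of plasma kallikrein related to the inter-alpha-inhibitor heavy chains, and C-reactive protein (Crp) binds phosphocholine. Crp is a weak acute phase reactant in mice, unlike in humans, whereas Saa1 and Saa2 are strong ones.

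Saa1, Saa2 and Saa3 lie close together on chromosome 7 and Orm1 and Orm2 on chromosome 4. Their coding sequences are shown first because they bear on how far reads can be assigned to a single copy. The counts cover all exons (612 bases for Saa1, 825 for Saa2 and 531 for Saa3). The exon bases outside the coding sequence were not compared. In the transcripts of GENCODE vM21 (GRCm38), 351 of the 369 coding bases of Saa1 and Saa2 were identical (95.1%), and 14.7% of the 50-base windows of Saa1 occurred unchanged in Saa2. Saa3 was 78.2% identical to Saa1 over the aligned bases. Orm1 and Orm2 shared 561 of 624 coding bases (89.9%), with 9.74% of the 50-base windows of Orm1 found in Orm2. The first 120 coding bases follow, from the start codon, 5′ to 3′, with capitals where a base differs from Saa1 or, for Orm2, from Orm1. Of these 120 bases, 5 differed in Saa2, 48 in Saa3 and 11 in Orm2.
Saa1: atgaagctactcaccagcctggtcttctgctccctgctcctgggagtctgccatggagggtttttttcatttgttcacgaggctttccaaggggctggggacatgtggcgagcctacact
Saa2: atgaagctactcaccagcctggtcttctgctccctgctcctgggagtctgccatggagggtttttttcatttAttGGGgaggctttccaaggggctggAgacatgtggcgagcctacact
Saa3: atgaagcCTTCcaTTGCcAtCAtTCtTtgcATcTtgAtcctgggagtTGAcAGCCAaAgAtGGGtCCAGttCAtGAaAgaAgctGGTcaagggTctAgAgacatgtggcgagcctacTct
Orm1: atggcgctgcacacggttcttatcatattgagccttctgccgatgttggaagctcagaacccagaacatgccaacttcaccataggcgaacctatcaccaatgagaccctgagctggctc
Orm2: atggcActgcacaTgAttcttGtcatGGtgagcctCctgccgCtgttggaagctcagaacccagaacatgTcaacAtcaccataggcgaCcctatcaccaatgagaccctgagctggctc

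The sequences before the start sites are shown for 6 genes, because Saa1, Saa2, Orm2 and Lcn2 varied most between libraries of the same group, Saa3 followed the groups in another way than Saa1 and Saa2, and Itih4 held the STAT3 match. They are RefSeq promoters on GRCm38.p6, whereas the counts are on mm39, and 8 of the 10 genes had an entry, all but Orm1 and Hp. In the 250 bases before the start, both strands were searched for the C/EBP motif TTGCNNAA (held by 9.56% of 32851 mouse promoters), the NF-kappaB motif (GG and TTCC with 4 bases between, 15.2%), the STAT3 motif TTCNNNGAA (7.02%) and TATAAA (12.4%). C/EBP matches were in Saa1, Saa2, Saa3, Orm2 and Lcn2, NF-kappaB matches in Saa1 and Serpina3n, a STAT3 match in Itih4 and TATAAA in Orm2 and Crp, with no match overlapping another. A match only describes the letters and is not shown to be a site. Saa1 and Saa2 were alike here as well, with 238 of 249 aligned bases identical (95.6%). Each line gives the 220 bases before the start, 5′ to 3′ in the direction of the gene, with every motif match in capitals.
Saa1 (chr7:46742981-46743200, minus strand): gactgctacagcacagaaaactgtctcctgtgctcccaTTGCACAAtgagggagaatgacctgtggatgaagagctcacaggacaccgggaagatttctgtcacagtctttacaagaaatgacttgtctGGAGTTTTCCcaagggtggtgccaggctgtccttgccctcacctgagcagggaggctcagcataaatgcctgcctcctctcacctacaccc
Saa2 (chr7:46751613-46751832, plus strand): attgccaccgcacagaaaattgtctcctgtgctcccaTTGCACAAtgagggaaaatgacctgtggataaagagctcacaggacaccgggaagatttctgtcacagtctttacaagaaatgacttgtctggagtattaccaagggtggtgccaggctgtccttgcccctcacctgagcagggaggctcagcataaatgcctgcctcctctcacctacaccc
Saa3 (chr7:46715677-46715896, minus strand): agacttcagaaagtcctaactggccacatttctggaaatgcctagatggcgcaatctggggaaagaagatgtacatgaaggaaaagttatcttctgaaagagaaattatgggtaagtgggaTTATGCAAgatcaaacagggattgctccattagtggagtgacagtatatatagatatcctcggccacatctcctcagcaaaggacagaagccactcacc
Orm2 (chr4:63362229-63362448, plus strand): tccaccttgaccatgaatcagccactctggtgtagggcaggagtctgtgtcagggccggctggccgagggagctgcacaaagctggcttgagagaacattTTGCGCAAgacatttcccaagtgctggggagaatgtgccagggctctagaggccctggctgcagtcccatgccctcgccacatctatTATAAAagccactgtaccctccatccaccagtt
Lcn2 (chr2:32387740-32387959, minus strand): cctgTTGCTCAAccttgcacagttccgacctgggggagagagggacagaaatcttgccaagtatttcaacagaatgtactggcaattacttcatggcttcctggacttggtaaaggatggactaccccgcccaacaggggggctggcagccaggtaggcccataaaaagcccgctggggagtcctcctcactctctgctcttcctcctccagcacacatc
Itih4 (chr14:30886256-30886475, plus strand): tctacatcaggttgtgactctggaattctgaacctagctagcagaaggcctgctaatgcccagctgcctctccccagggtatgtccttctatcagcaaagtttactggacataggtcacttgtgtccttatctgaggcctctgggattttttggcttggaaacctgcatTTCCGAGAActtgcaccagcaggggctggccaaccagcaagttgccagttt

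Total counts per library ran from 3873903 to 9797743, and the values below are CPM, counts scaled to a common library size with TMM, a factor that aligns libraries of different composition. Expression values of the 3 libraries of a group are given in the order of their numbers, which are 6, 7 and 8 for SD-NS, 12, 13 and 16 for HFD-NS, 17, 18 and 19 for HFD-338, 23, 26 and 27 for HFD-337, and 29, 30 and 34 for HFD-Res. Stk25, the gene that Gc337 targets, was at 43.7 to 48.6 CPM in HFD-NS, 47.8 to 53.3 in SD-NS and 37.7 to 46.9 in HFD-Res, and at 14.6 to 19.1 in HFD-337 and 20.5 to 22.0 in HFD-338, so it was low in both numbered groups. Of 16 hepatocyte markers 14 were in the table, none of them at 0 in any group, and their summed level was between 97866 and 171510 CPM. Replicates of a group differed beyond counting noise in all 15 pairs (chi-square per degree of freedom 5.09 to 29.8). In HFD-337 against HFD-NS, 40.0% of the 3544 tested genes spanning under 10 kb were called higher and 9.88% lower. Over all tested genes these shares were 24.4% and 22.8%. The shares by gene span were computed for this comparison alone. Of the 10 acute phase genes, 9 are that short (Itih4 spans 15.5 kb).

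Levels of different genes can be compared per exon length only, as TPM (transcripts per kilobase of exon, scaled to a fixed library total). Over the 15 libraries Hp averaged 4954 TPM and ranked 24th of all genes, ahead of Orm1 (1583 TPM), Itih4 (1022 TPM), Saa1 (695 TPM), Crp (542 TPM) and Serpina3n (411 TPM). Saa2 averaged 189.9 TPM, Lcn2 170.3 TPM, Orm2 89.9 TPM and Saa3 48.3 TPM. The 10 genes together took 0.484% to 1.09% of all counts in a library, lowest in HFD-Res 30 and highest in HFD-337 23.

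On the high-fat diet 3 of the 10 genes were higher than in SD-NS (Saa3, Lcn2 and Serpina3n) and none was lower, where 28.1% of the 13189 tested genes were called, 1589 of them higher and 2122 lower. Between the treated groups and HFD-NS, HFD-337 had 0 of 10 called (background 24.4% higher and 22.8% lower). HFD-338 had 3 lower (Saa3, Itih4 and Crp) and none higher (background 18.9% higher and 17.9% lower). HFD-Res had 2 lower (Saa3 and Serpina3n) and none higher (background 6.22% higher and 6.74% lower). Called means an adjusted p under 0.05 in edgeR's quasi-likelihood test over all tested genes. At an unadjusted p under 0.05 the HFD-337 count was also 0, and it was 0 by DESeq2. It was 1 (Crp, lower) with limma on TPM and 3 (Saa3, Orm1 and Orm2, higher) without HFD-337 library 26. Hp was called higher without HFD-NS library 13, and Crp lower without HFD-337 library 27. The 4 comparisons share libraries, since all of them use HFD-NS.

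**Figure D1:**
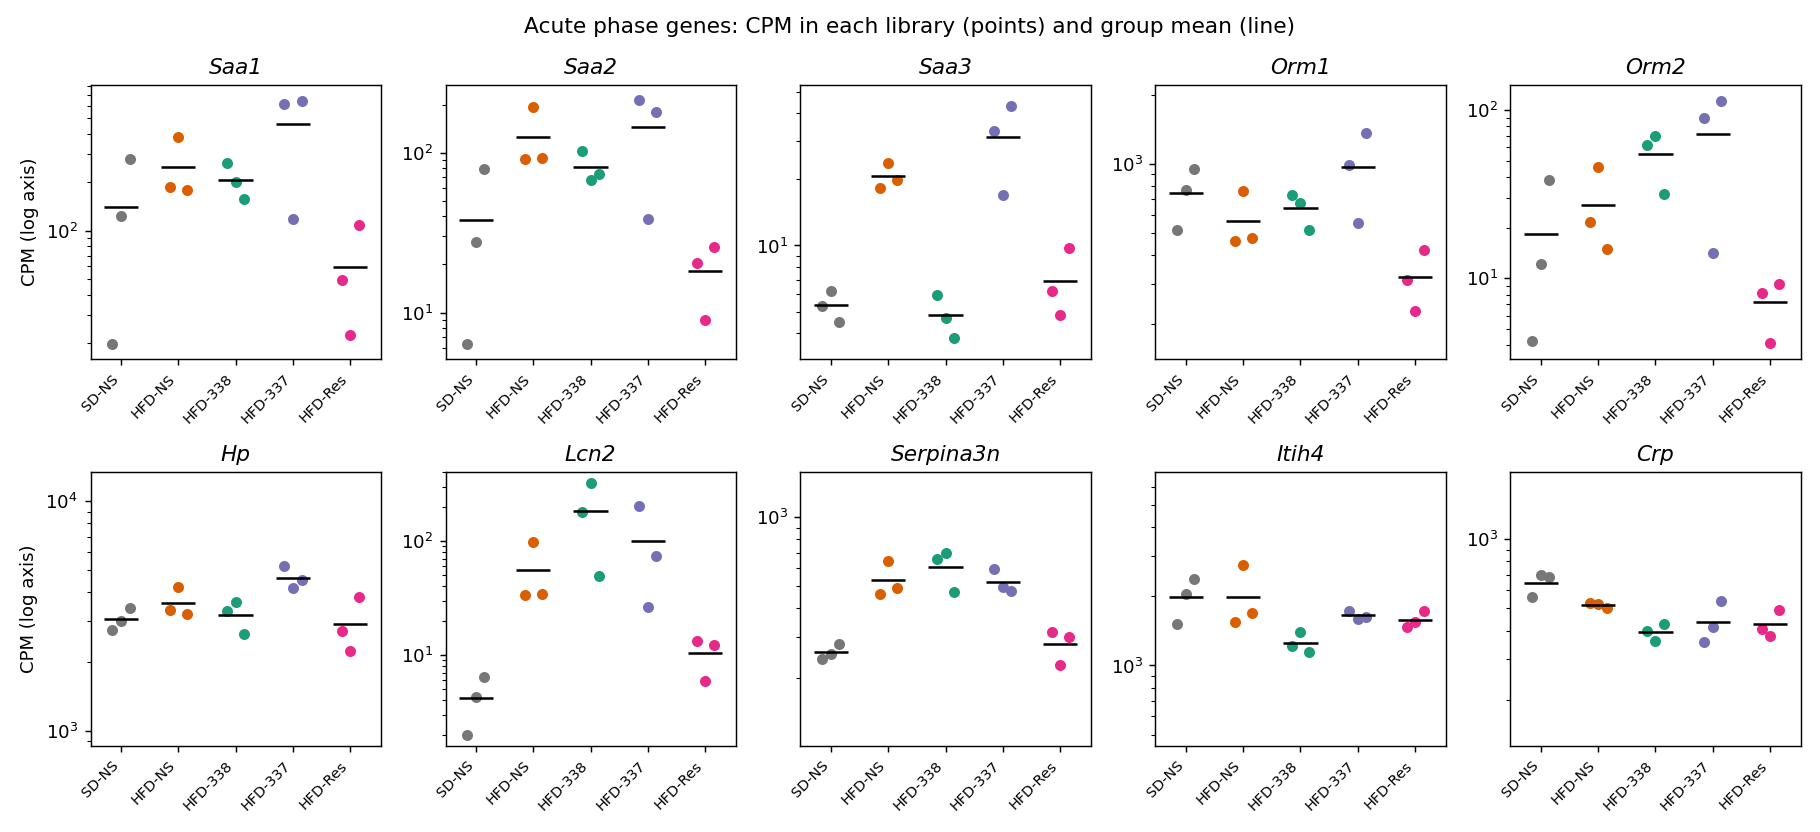
CPM on a log axis for each of the 10 acute phase genes (panels) in the 5 groups, with 1 point per library and a line at the group mean. Lcn2 and Serpina3n are lowest in SD-NS and HFD-Res, Saa3 is high in HFD-NS and HFD-337 alone, and Saa1, Saa2 and Orm2 spread widely within SD-NS and HFD-337.

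The median log2 fold change of the 10 genes was 0.79 in HFD-NS against SD-NS, 0.46 in HFD-337 against HFD-NS, -0.22 in HFD-338 against HFD-NS and -1.22 in HFD-Res against HFD-NS. The median of all tested genes lay between -0.02 and 0.03 in these 4 comparisons. All 10 estimates were negative in HFD-Res, and for 8 genes (all but Hp and Itih4) the HFD-Res libraries lay wholly below the HFD-NS libraries, against 15.4% of all tested genes. In bulk tissue, fewer cells of a type and less RNA per cell cannot be told apart. The summed hepatocyte markers were also lower in HFD-Res, at 97866 to 107330 CPM against 141950 to 156630 CPM in HFD-NS. Much of this sum was Alb, at a mean of 56127 CPM in HFD-Res and 82666 CPM in HFD-NS. Against HFD-NS, the median log2 fold change of the 14 markers was -0.27 in HFD-Res, -0.13 in HFD-338 and -0.55 in HFD-337. The part of these markers in the result was not tested.

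**Figure D2:**
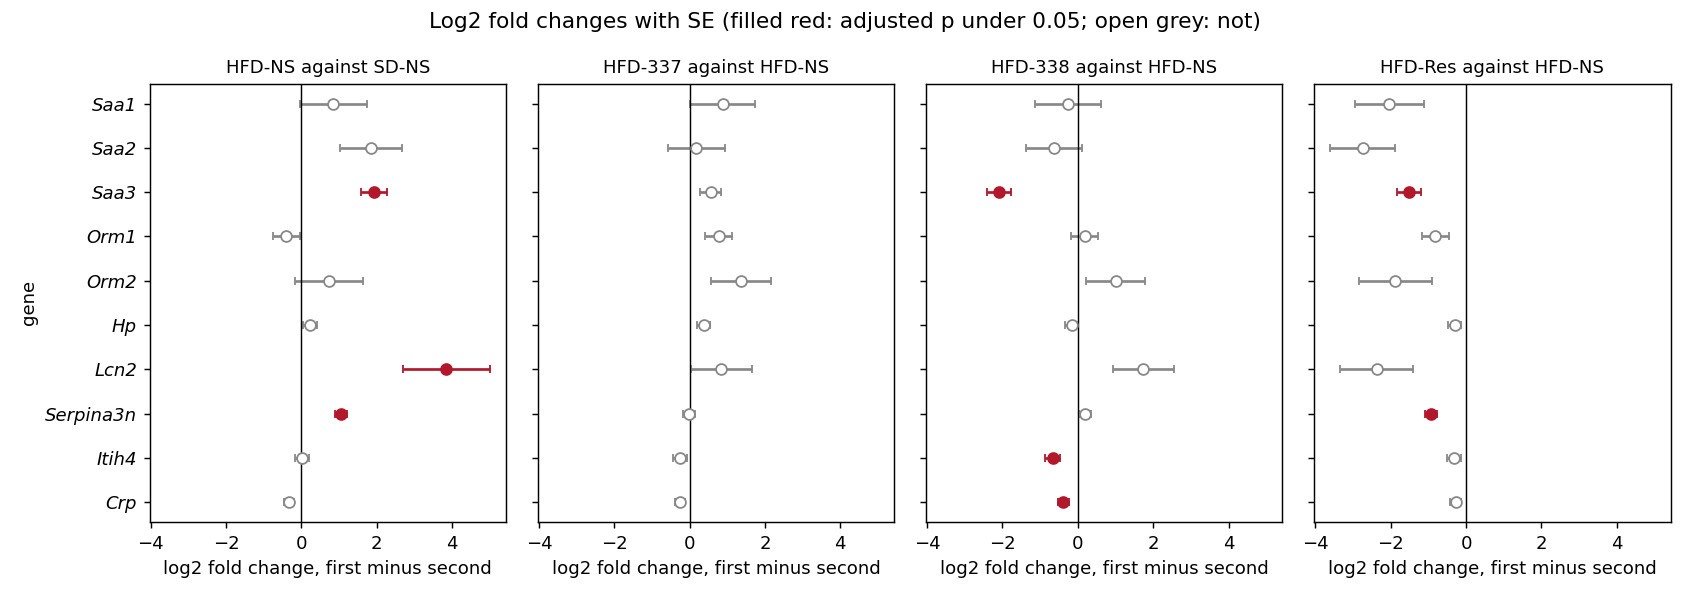
Log2 fold changes (points, first group minus second) with their SE (bars) for the 10 genes in 4 comparisons; filled red points have an adjusted p under 0.05. HFD-Res against HFD-NS is the comparison with all 10 points left of 0, and HFD-337 against HFD-NS has no filled point.

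Saa1 (mm39, chromosome 7, 46389921 to 46392404, minus strand) encodes the main circulating serum amyloid A. It was at 19.8, 123 and 280.1 CPM in SD-NS and at 186, 384 and 179 CPM in HFD-NS. HFD-338 gave 263, 201.5 and 158 CPM, HFD-337 gave 613, 117 and 646 CPM, and HFD-Res gave 49.2, 22.3 and 108 CPM. SD-NS alone spanned a 14.1-fold range, and the HFD-337 library 26 lay below every HFD-NS library while the other two lay above all of them. The group means ran in the order HFD-337 (459 ± 296 CPM, SD, n = 3), HFD-NS (249.7 ± 116), HFD-338 (207 ± 53.1), SD-NS (141 ± 131) and HFD-Res (59.8 ± 43.7), and no 2 neighbours in this order differed beyond their spread.

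The log2 fold change of Saa1 was 0.85 ± 0.89 (SE) in HFD-NS against SD-NS (edgeR, adjusted p = 0.522) and 0.87 ± 0.87 in HFD-337 against HFD-NS (adjusted p = 0.442). HFD-Res against HFD-NS gave -2.04 ± 0.92 with no overlap between the groups, and it missed the threshold (edgeR, adjusted p = 0.199). A p that misses the threshold does not show that the levels were alike.

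Saa2 (chromosome 7, 46401257 to 46403737, plus strand) is the near copy of Saa1 on the opposite strand. It was measured at 6.39, 27.6 and 79.6 CPM in SD-NS and 91.7, 193 and 93.0 CPM in HFD-NS. The treated groups held 102.5, 67.5 and 73.6 CPM in HFD-338, 212, 38.5 and 181 CPM in HFD-337, and 20.3, 8.97 and 25.6 CPM in HFD-Res. All 3 HFD-NS libraries lay above all 3 SD-NS libraries, and all 3 HFD-Res libraries lay below HFD-NS. HFD-NS against SD-NS gave a log2 fold change of 1.84 ± 0.82 (edgeR, adjusted p = 0.125). HFD-Res against HFD-NS gave -2.74 ± 0.86 (edgeR, adjusted p = 0.0654), which DESeq2 called (adjusted p = 0.00707).

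Saa1 and Saa2 moved together across libraries, with a root mean square difference of 0.37 between their centred log2 values over the 15 libraries. Each was the other's nearest of the 10 genes. Their ratio was not constant: Saa1 over Saa2 in CPM was 1.93 to 2.03 in the 3 HFD-NS libraries, below the 2.14 to 4.44 of the other 12. In SD-NS the ratio ran from 3.10 to 4.44. The copies share sequence stretches, and the counting program by default leaves out reads that map to several places. Both levels are uncertain to that extent.

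Saa3 (chromosome 7, 46361422 to 46365100, minus strand), the form also made by macrophages and adipocytes, fell into a high and a low set of groups. It was at 5.325, 6.22 and 4.50 CPM in SD-NS and at 18.2, 23.8 and 19.9 CPM in HFD-NS. HFD-338 gave 5.93, 4.70 and 3.80 CPM, HFD-337 gave 33.1, 16.9 and 43.0 CPM, and HFD-Res gave 6.21, 4.83 and 9.73 CPM. Every HFD-NS and HFD-337 library lay above every library of the other 3 groups. The counts behind these values were 16 to 212 per library.

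Saa3 rose in HFD-NS against SD-NS by a log2 fold change of 1.93 ± 0.34 (edgeR, adjusted p = 0.000867). It fell in HFD-338 against HFD-NS, with -2.09 ± 0.32 (edgeR, adjusted p = 0.000179), and in HFD-Res against HFD-NS, with -1.52 ± 0.32 (edgeR, adjusted p = 0.00552). HFD-337 exceeded HFD-338 by 2.64 ± 0.32 (edgeR, adjusted p = 9.89e-06). Stk25 was low in both, and lower in HFD-337 than in HFD-338 (-0.29 ± 0.12, edgeR adjusted p = 0.045). The part of Stk25 in the Saa3 result was not tested. In the order of means, HFD-337 (31.0 ± 13.2 CPM, SD, n = 3) and HFD-NS (20.7 ± 2.88) did not differ beyond their spread (edgeR, adjusted p = 0.108), HFD-NS and HFD-Res (6.92 ± 2.53) did, and below them neither HFD-Res and SD-NS (5.35 ± 0.861) nor SD-NS and HFD-338 (4.81 ± 1.07) differed beyond their spread (adjusted p = 0.501 and 0.761). Without HFD-337 library 26, HFD-337 exceeded HFD-NS by 0.88 ± 0.20 (edgeR, adjusted p = 0.00145).

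The summed level of the 9 adipocyte markers was 3020.4 to 3870.5 CPM in HFD-NS and 2688.5 to 3411 CPM in HFD-337, against 286 to 401 in SD-NS, 665 to 1329.7 in HFD-338 and 738 to 879 in HFD-Res. Nearly all of that sum was Car3, a carbonic anhydrase that hepatocytes also express, at a mean of 3337 CPM in HFD-NS. The other markers did not share 1 order: Cidec averaged 74.8 CPM in SD-NS, 53.9 in HFD-NS and 31.5 in HFD-337, Fabp4 averaged 7.60, 18.4 and 5.82 CPM in the same groups, and Cfd averaged 0.130, 9.97 and 14.9 CPM. Lep was at 0 in all 5 groups and Plin1, a defining adipocyte gene, was at 0 in all groups but HFD-NS. Monocyte and recruited macrophage markers summed to 1749 to 1929 CPM in HFD-338, where Saa3 was lowest. They summed to 1056 to 1199.9 CPM in HFD-337, where Saa3 was highest, and to 1307 to 1623 CPM in HFD-NS. A large part of these sums was Fn1, at a mean of 916 CPM in HFD-338, 949 in HFD-337 and 1283 in HFD-NS. Of these 12 markers, 2 were higher and 2 lower in HFD-337 than in HFD-NS (24.4% and 22.8% of all tested genes). In HFD-338, 10 were higher and 1 lower (18.9% and 17.9% of all). Kupffer cell markers summed to 222 to 626 CPM in HFD-338, 76.5 to 171 CPM in HFD-337 and 217 to 269 CPM in HFD-NS. The part of adipocyte or macrophage RNA in the Saa3 result was not tested.

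Saa4, the constitutive relative that is not counted among the 10 genes, averaged 148 CPM in SD-NS and 657 CPM in HFD-NS, a log2 fold change of 2.15 ± 0.22 (edgeR, adjusted p = 1.36e-05). It fell in HFD-338 against HFD-NS (288 CPM, -1.19 ± 0.21, edgeR adjusted p = 0.00067). HFD-Res averaged 596 CPM and HFD-337 averaged 611 CPM, and neither differed from HFD-NS beyond the spread (edgeR, adjusted p = 0.746 and 0.717).

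Orm1 (chromosome 4, 63262793 to 63266400, plus strand) is the most abundant orosomucoid gene here. It was at 516, 773 and 952 CPM in SD-NS, at 461, 762 and 474 CPM in HFD-NS and at 733, 678 and 514 CPM in HFD-338. HFD-337 gave 991, 554 and 1365 CPM, and HFD-Res gave 313, 228 and 420.3 CPM. The 3 HFD-Res libraries were the lowest 3 of all 15. Orm1 was lower in HFD-Res than in SD-NS by a log2 fold change of -1.22 ± 0.37 (edgeR, adjusted p = 0.0299), and the call did not hold without SD-NS library 7 or 8 or HFD-Res library 29 or 30 (adjusted p = 0.0737 to 0.0969). Against HFD-NS the HFD-Res value was -0.82 ± 0.36 (edgeR, adjusted p = 0.184).

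Orm2 (chromosome 4, 63280686 to 63284114, plus strand) was the less abundant and more variable copy. It was at 4.26, 12.2 and 38.5 CPM in SD-NS, at 21.6, 45.7 and 14.97 CPM in HFD-NS and at 62.1, 70.1 and 31.8 CPM in HFD-338. HFD-337 gave 89.8, 14.2 and 112 CPM and HFD-Res gave 8.14, 4.14 and 9.30 CPM. As for Saa1, library 26 was far below the other HFD-337 libraries, and SD-NS spread over a 9.05-fold range. Orm2 in HFD-337 against HFD-NS gave 1.38 ± 0.80 (edgeR, adjusted p = 0.183). Without library 26, HFD-337 exceeded HFD-NS for Orm1 (1.06 ± 0.33, edgeR adjusted p = 0.0246) and for Orm2 (1.89 ± 0.68, edgeR adjusted p = 0.0485).

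The ratio of Orm1 to Orm2 in CPM ran from 9.67 in HFD-338 library 18 to 121 in SD-NS library 6. It was 24.7 to 121 in SD-NS, 16.7 to 31.7 in HFD-NS, 38.5 to 55.1 in HFD-Res, 11.04 to 39.1 in HFD-337 and 9.67 to 16.2 in HFD-338. The ratio in HFD-338 lay below every HFD-NS library, and in HFD-Res above every HFD-NS library. Orm3, the third gene of the cluster, averaged 1.32 CPM in SD-NS and 17.2 CPM in HFD-NS (log2 fold change 3.82 ± 0.93, edgeR adjusted p = 0.0112), and no treated group differed from HFD-NS beyond the spread (adjusted p = 0.261 to 0.462).

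**Figure D3:**
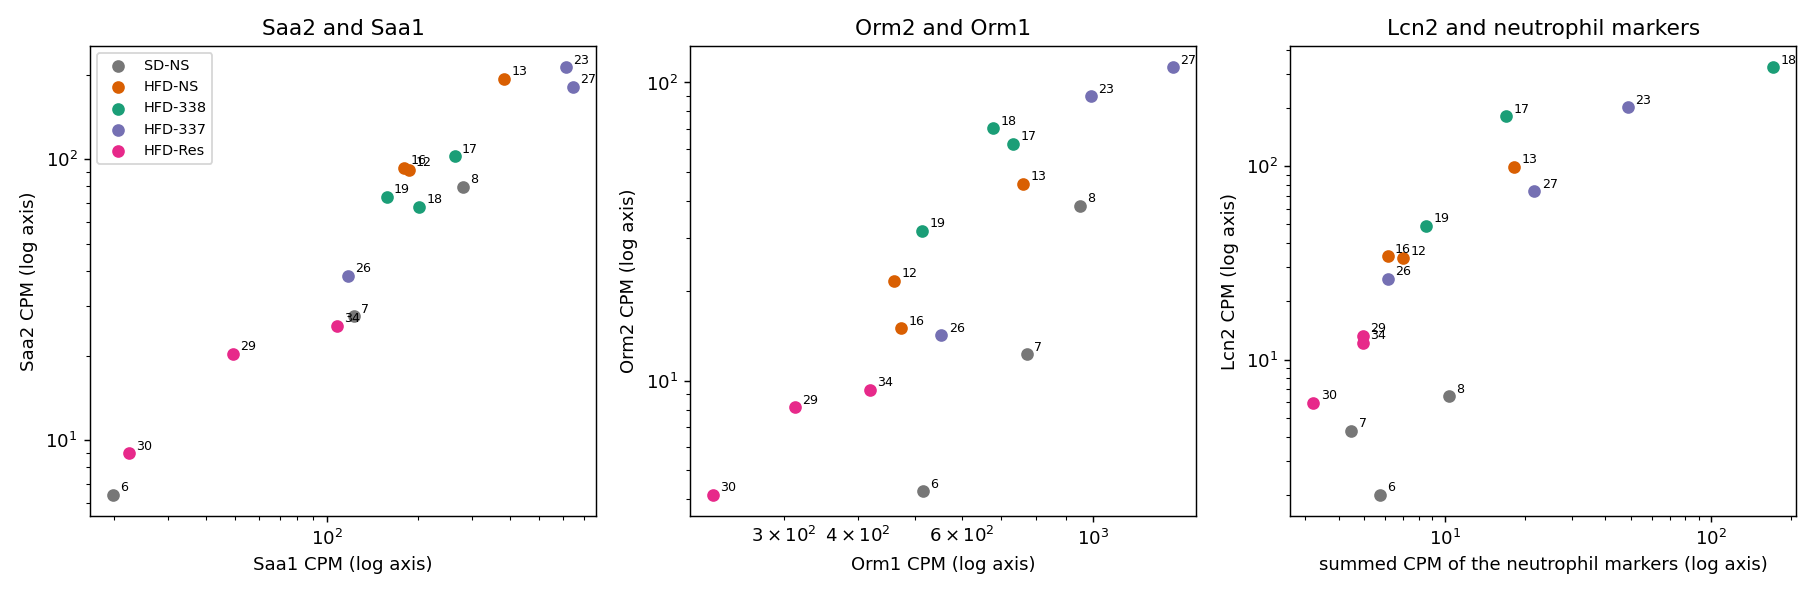
Left and middle, CPM of Saa2 against Saa1 and of Orm2 against Orm1 in the 15 libraries on log axes; right, Lcn2 CPM against the summed CPM of the 13 neutrophil markers. Colours are groups and numbers are libraries. Libraries 23 and 27 of HFD-337 sit at the top right of the first 2 panels and library 26 far below them, and HFD-338 library 18 is the farthest right in the third.

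Hp (chromosome 8, 110301760 to 110305804, minus strand) had the highest TPM level of the 10 genes. Its pooled SD of log2 CPM within groups was 0.25, against a median of 0.22 over all tested genes. It was at 2752, 3013 and 3426 CPM in SD-NS, at 3356.5, 4216 and 3214 CPM in HFD-NS and at 3336, 3629 and 2645 CPM in HFD-338. HFD-337 gave 5203, 4183 and 4550.3 CPM, and HFD-Res gave 2712, 2215 and 3833.5 CPM. HFD-337 library 26 overlapped HFD-NS library 13 and the other 2 HFD-337 libraries lay above all HFD-NS libraries. HFD-337 against HFD-NS was 0.37 ± 0.18 (edgeR, adjusted p = 0.0934), and it was called without HFD-NS library 13 (0.50 ± 0.19, edgeR adjusted p = 0.0491). HFD-337 exceeded HFD-338 by 0.54 ± 0.18 (edgeR, adjusted p = 0.0147), and this call did not hold without HFD-338 library 19 (0.41, adjusted p = 0.0786) or HFD-337 library 23 (0.45, adjusted p = 0.0581), and on the TPM scale (0.26 ± 0.20, limma adjusted p = 0.294). On that scale the median of all genes was itself at -0.23 in this comparison, against -0.000315 with TMM.

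Lcn2 (chromosome 2, 32274649 to 32277751, minus strand) covered the widest range of the 10 genes. It was at 2.00, 4.28 and 6.47 CPM in SD-NS and at 33.3, 98.8 and 34.2 CPM in HFD-NS. HFD-338 gave 181, 324 and 49.2 CPM, HFD-337 gave 201, 26.2 and 73.9 CPM, and HFD-Res gave 13.3, 5.98 and 12.2 CPM. Every HFD-NS, HFD-338 and HFD-337 library lay above every SD-NS and HFD-Res library. Lcn2 rose in HFD-NS against SD-NS by a log2 fold change of 3.85 ± 1.15 (edgeR, adjusted p = 0.0303). That call was lost without SD-NS library 6, 7 or 8 or HFD-NS library 13 (log2 fold change 3.14 to 4.21, adjusted p = 0.0593 to 0.111) and with limma-voom (adjusted p = 0.0819).

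In HFD-338 Lcn2 averaged 185 ± 137 CPM (SD, n = 3), against 55.4 ± 37.6 in HFD-NS, and the groups overlapped (1.74 ± 0.80, edgeR adjusted p = 0.118). HFD-Res averaged 10.5 ± 3.94 CPM, below all HFD-NS libraries, at -2.37 ± 0.97 (edgeR, adjusted p = 0.154), which DESeq2 called (-2.40, adjusted p = 0.0325). HFD-338 exceeded HFD-Res by 4.11 ± 0.97 (edgeR, adjusted p = 0.00642).

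Neutrophils also make Lcn2, and the 13 neutrophil markers summed to 171 CPM in HFD-338 library 18, 48.8 CPM in HFD-337 library 23 and 3.22 to 21.7 CPM in the other 13 libraries. Those libraries held the highest and second highest Lcn2. The group ranges of the sum were 4.47 to 10.4 CPM in SD-NS, 6.11 to 18.3 in HFD-NS, 8.51 to 171 in HFD-338, 6.11 to 48.8 in HFD-337 and 3.22 to 4.94 in HFD-Res. Ly6g, Mpo, Ngp and Ltf were at 0 in SD-NS, and Ly6g, Elane, Camp, Ngp, Ltf and Prtn3 in HFD-Res. In library 18, S100a8 and S100a9 alone were at 66.7 and 55.9 CPM. SD-NS library 8 had a marker sum of 10.4 CPM, above HFD-NS libraries 12 and 16 with 7.01 and 6.11 CPM, while its Lcn2 was 6.47 CPM against 33.3 and 34.2 CPM in those. The part of neutrophil RNA in the Lcn2 levels was not tested.

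Serpina3n (chromosome 12, 104372967 to 104380588, plus strand) also fell into 2 sets. It was at 241, 254.5 and 281 CPM in SD-NS and at 463, 643 and 491 CPM in HFD-NS. HFD-338 gave 656, 698 and 471 CPM, HFD-337 gave 595, 497 and 476 CPM, and HFD-Res gave 315, 227 and 299.9 CPM. The 15 libraries fell into a lower set made of SD-NS and HFD-Res and an upper set made of the other 3 groups, with no overlap. Serpina3n rose in HFD-NS against SD-NS by 1.04 ± 0.16 on the log2 scale (edgeR, adjusted p = 0.000162) and was lower in HFD-Res than in HFD-NS by -0.92 ± 0.16 (edgeR, adjusted p = 0.000718). HFD-Res and SD-NS were neighbours that did not differ beyond the spread (0.12 ± 0.16, edgeR adjusted p = 0.642), and so were HFD-338, HFD-NS and HFD-337 (adjusted p = 0.366 and 0.911). Both calls held without any single library.

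Serpina3n belongs to a cluster of related genes. Serpina3m averaged 387 CPM in HFD-NS against 267 CPM in SD-NS (0.53 ± 0.16, edgeR adjusted p = 0.0175), and it fell in HFD-337 to 189.8 CPM (-1.02 ± 0.16, edgeR adjusted p = 5.34e-05). Serpina3m was also lower than in HFD-NS in HFD-338 (247 CPM, -0.65 ± 0.16, edgeR adjusted p = 0.00372) and in HFD-Res (271 CPM, -0.51 ± 0.16, edgeR adjusted p = 0.0403). Serpina3g rose from 5.35 to 12.1 CPM on the high-fat diet (1.22 ± 0.32, edgeR adjusted p = 0.00965) and fell to 4.43 CPM in HFD-337 (-1.44 ± 0.32, edgeR adjusted p = 0.00142). Serpina3k, the abundant liver member, was at 13576 CPM in SD-NS and 6257 CPM in HFD-NS without passing the test (-1.12 ± 0.42, edgeR adjusted p = 0.0724). Serpina3n in HFD-337 against HFD-NS was -0.03 ± 0.16 (edgeR, adjusted p = 0.911).

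Itih4 (chromosome 14, 30608433 to 30623943, plus strand) was lowest in HFD-338. It was at 1514, 2047 and 2382 CPM in SD-NS, at 1540.4, 2733 and 1687 CPM in HFD-NS and at 1212, 1393 and 1139 CPM in HFD-338. HFD-337 gave 1734, 1596 and 1629 CPM and HFD-Res gave 1473, 1554 and 1729 CPM. HFD-338 lay below every library of the other groups. The difference to HFD-NS was -0.67 ± 0.19 (edgeR, adjusted p = 0.0103). It was -0.38 and not called without HFD-NS library 13 (adjusted p = 0.0678), and not called on the TPM scale (-0.49, limma adjusted p = 0.119).

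Crp (chromosome 1, 172525623 to 172527533, plus strand) was the only one of the 10 genes with its highest mean in SD-NS. It was at 557, 695 and 685 CPM in SD-NS, at 529, 519 and 500.4 CPM in HFD-NS and at 397, 362 and 428 CPM in HFD-338. HFD-337 gave 356, 413 and 537 CPM and HFD-Res gave 407, 379.5 and 492 CPM. Every SD-NS library lay above every HFD library. HFD-NS against SD-NS was -0.32 ± 0.14 (edgeR, adjusted p = 0.0864), and HFD-Res against SD-NS was -0.60 ± 0.14 (edgeR, adjusted p = 0.00285). Crp was lower in HFD-338 than in HFD-NS by -0.38 ± 0.14 (edgeR, adjusted p = 0.034), which was lost without HFD-NS library 12, 13 or 16 or HFD-338 library 17 or 18 (adjusted p = 0.0531 to 0.148), with DESeq2 (adjusted p = 0.0557) and with DESeq2's size factors in edgeR (adjusted p = 0.0544). On the TPM scale the HFD-338 value was -0.25 (limma, adjusted p = 0.129), and HFD-337 against HFD-NS was called there at -0.41 (limma, adjusted p = 0.0126) while edgeR gave -0.25 (adjusted p = 0.148) with all libraries and -0.44 (adjusted p = 0.012) without HFD-337 library 27.

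Among the remaining comparisons, HFD-337 against HFD-Res had 8 of the 10 genes higher, all but Itih4 and Crp, and none lower (background 24.3% higher and 23.3% lower). Log2 fold changes ran from 0.67 ± 0.18 for Hp to 3.25 ± 0.96 for Orm2, and for Saa1 and Saa2 they were 2.91 ± 0.95 and 2.92 ± 0.87 (edgeR, adjusted p = 0.0276 and 0.0181). The count was 4 without HFD-Res library 30, where Saa3, Orm1, Hp and Serpina3n stayed called, and 4 with limma-voom or with the 2 groups fitted alone. The Saa1 call was also lost without HFD-337 library 23 or 27 or HFD-Res library 29 (edgeR, adjusted p = 0.0655 to 0.0827), Saa2 without library 23 (0.0541), Orm2 without library 27 (0.0576) and Lcn2 without library 23 or 34 (0.0877 and 0.056). HFD-338 against HFD-Res had 4 higher (Orm1, Orm2, Lcn2 and Serpina3n) and none lower (background 22.2% higher and 20.9% lower). Orm2 was 54.7 ± 20.2 CPM in HFD-338 and 7.19 ± 2.71 in HFD-Res (2.88 ± 0.95, edgeR adjusted p = 0.0326), and the Orm2 call was lost without any single library of HFD-Res or without HFD-338 library 17 or 18 (adjusted p = 0.0697 to 0.0942). Orm1 (1.00 ± 0.36, edgeR adjusted p = 0.0452) lost its call without any single library but HFD-Res 34 (adjusted p = 0.0511 to 0.141).

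Between the groups with low Stk25, HFD-337 had 2 genes higher than HFD-338 (Saa3 and Hp) and none lower, against 28.8% higher and 29.6% lower of all tested genes. Against SD-NS, HFD-337 had 4 higher (Saa3, Hp, Lcn2 and Serpina3n) and 1 lower (Crp), with a background of 28.1% and 27.1%. HFD-338 had 2 higher than SD-NS (Lcn2 and Serpina3n) and 2 lower (Itih4 and Crp), with a background of 23.0% and 25.7%. The Itih4 call was lost on the TPM scale (-0.40, limma adjusted p = 0.172), and the Lcn2 call in HFD-337 against SD-NS was lost with limma-voom (adjusted p = 0.052). HFD-Res had none higher and 2 lower (Orm1 and Crp), with a background of 11.5% and 15.4%. HFD-Res against SD-NS gave 1.48 ± 1.36 for Lcn2 (edgeR, adjusted p = 0.482) and 0.41 ± 0.40 for Saa3 (adjusted p = 0.501). With these 2 groups fitted alone, Lcn2 was called higher in HFD-Res (1.52 ± 0.41, edgeR adjusted p = 0.0187). Orm1 lost its call in that fit (edgeR, adjusted p = 0.0607).

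The libraries of a group were ordered alike by many of the 10 genes. SD-NS library 6 was the lowest of its group for 9 genes and library 8 the highest for 8. HFD-NS library 13 was the highest for 9, HFD-338 library 19 the lowest for 8, HFD-337 library 26 the lowest for 8, and HFD-Res library 30 the lowest for 9 and library 34 the highest for 8. Crp did not follow this order in HFD-NS, HFD-338 and HFD-337, where it was highest in 12, 19 and 27 and lowest in 16, 18 and 23. Other genes departed in single groups, such as Saa3, lowest in SD-NS library 8, and Serpina3n, lowest in HFD-337 library 27. The order was counted for the 10 genes alone and not over all tested genes.

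Measured as the pooled SD of log2 CPM within groups, this spread was 1.23 for Saa1, 1.13 for Orm2, 1.11 for Saa2 and 1.08 for Lcn2, at percentiles 99.73 to 99.87 of all tested genes. It was 0.46 for Orm1, 0.42 for Saa3, 0.26 for Itih4, 0.25 for Hp, 0.23 for Serpina3n and 0.19 for Crp, and the median of all tested genes was 0.22.

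**Figure D4:**
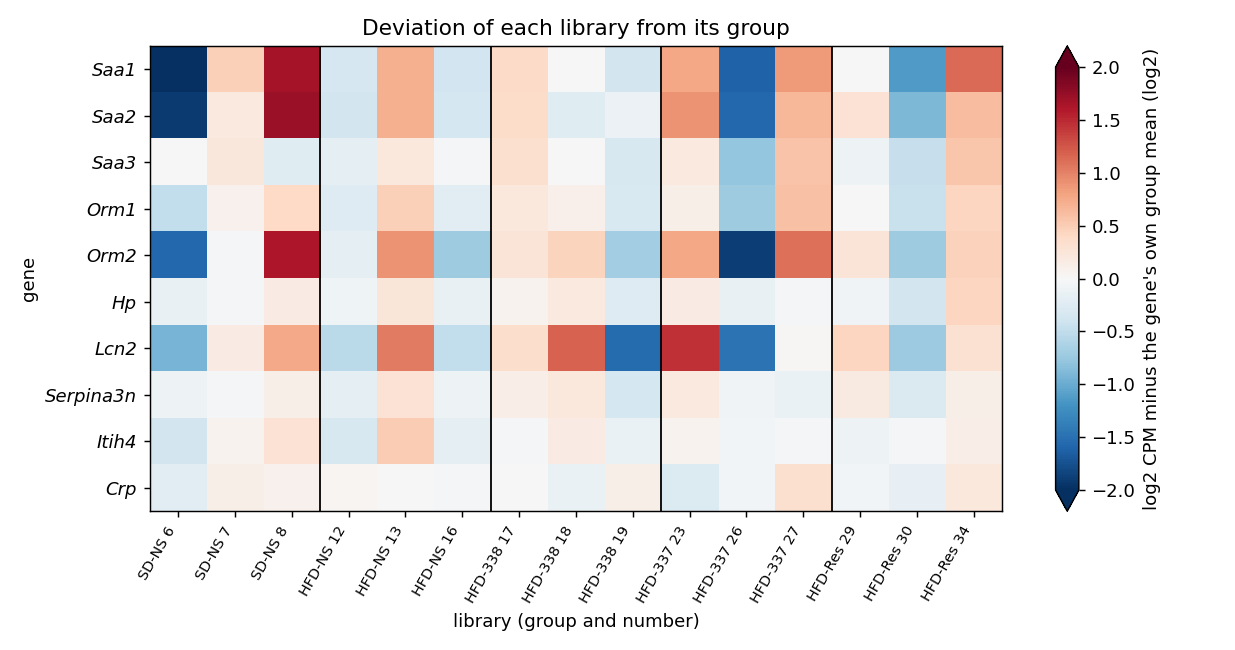
Deviation of log2 CPM from the gene's own group mean (colour, red above and blue below, limited to 2 on the log2 scale) for the 10 genes (rows) in the 15 libraries (columns, split by group). SD-NS 6, HFD-337 26 and HFD-Res 30 are blue and SD-NS 8, HFD-NS 13 and HFD-Res 34 red for most genes.

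Both IL-6 receptor chains were lower in HFD-337 and HFD-338 than in HFD-NS. The ligand gene Il6 had 0 to 2 counts summed over the 3 libraries of a group and was not tested. Il6ra, the IL-6 receptor, averaged 53.1 ± 15.1 CPM (SD, n = 3) in HFD-NS and fell to 16.9 CPM in HFD-337 (-1.63 ± 0.21, edgeR adjusted p = 2.15e-05), 34.1 CPM in HFD-338 (-0.64 ± 0.20, adjusted p = 0.0204) and 27.5 CPM in HFD-Res (-0.95 ± 0.21, adjusted p = 0.00596). Il6st, which encodes the shared signal transducer gp130, fell from 111 to 50.1 CPM in HFD-337 (-1.15 ± 0.11, edgeR adjusted p = 2.12e-07) and to 82.2 CPM in HFD-338 (-0.43 ± 0.11, adjusted p = 0.00372). Il6st spans 42791 bases, and the part of gene span in its HFD-337 value was not tested.

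Of the 25 genes listed for IL-6 family ligands, receptors and STAT3 signalling, 20 were tested. In HFD-337 against HFD-NS 3 were higher and 6 lower (24.4% and 22.8% of all tested genes), with a median of -0.05 against 0.03 for all genes. Socs3, the feedback inhibitor induced by STAT3, rose from 7.27 to 27.2 CPM (1.87 ± 0.54, edgeR adjusted p = 0.0151), and Cish, a related feedback inhibitor, rose from 9.69 to 44.4 CPM (2.15 ± 0.57, adjusted p = 0.0094). Socs3 spans 3280 bases, and 40.0% of all tested genes spanning under 10 kb were called higher in this comparison. The part of gene span in the Socs3 value was not tested. In HFD-338 4 of the 20 listed genes were higher and 3 lower (18.9% and 17.9% of all, median 0.02 against 0.00). Among them was Clcf1, an IL-6 family ligand, which rose from 0.878 to 4.63 CPM (2.37 ± 0.37, edgeR adjusted p = 7.58e-05). HFD-Res had 0 higher and 2 lower (6.22% and 6.74% of all, median -0.12 against 0.01), and HFD-NS against SD-NS had 2 higher and 2 lower (28.1% of all called, median 0.14 against -0.02). Stat3 was at 90.7 CPM in HFD-NS and 70.6 to 86.5 CPM in the other groups, and did not pass the test in any of the 4 comparisons (adjusted p = 0.162 to 0.815).

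Transcription factors of acute phase genes (22 tested) had 7 higher and 7 lower in HFD-337 against HFD-NS, where 24.4% and 22.8% of all genes were called (median 0.28 against 0.03). HFD-338 had 2 higher and 10 lower, where 18.9% and 17.9% of all genes were (median -0.37 against 0.00). HFD-Res had 1 higher and 0 lower, where 6.22% and 6.74% were (median -0.02 against 0.01). Hnf4a, a hepatocyte identity factor, fell from 651 CPM in HFD-NS to 374 CPM in HFD-338 (-0.80 ± 0.11, edgeR adjusted p = 1.94e-05). It averaged 390 CPM in HFD-337 and 636 CPM in HFD-Res. Cebpd, an inducible C/EBP factor, rose from 4.29 to 7.24 CPM in HFD-338 (0.75 ± 0.24, adjusted p = 0.0185). Cebpb, the other inducible form, averaged 53.4 CPM in HFD-338, 78.7 in HFD-NS, 119.5 in HFD-Res and 123 in HFD-337, and passed the test in none of the comparisons with HFD-NS (adjusted p = 0.0558 to 0.151). In HFD-Res Cebpg was the 1 factor called, rising from 89.7 to 160 CPM (0.83 ± 0.13, edgeR adjusted p = 0.000186). Nr3c1, the glucocorticoid receptor, fell in HFD-337 (-0.40 ± 0.11, edgeR adjusted p = 0.00675).

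Of the 33 tested genes for IL-1, TNF and NF-kappaB signalling, 7 were higher and 7 lower in HFD-NS against SD-NS, where 28.1% of all genes were called (median 0.13 against -0.02). Against HFD-NS, 9 were higher and 9 lower in HFD-337 (24.4% and 22.8% of all, median -0.15 against 0.03), 4 and 5 in HFD-338 (18.9% and 17.9%, median 0.07 against 0.00), and 2 and 5 in HFD-Res (6.22% and 6.74%, median -0.002382 against 0.01). Tnfaip3, which ends NF-kappaB signalling, rose on the high-fat diet from 3.66 to 7.71 CPM (1.13 ± 0.27, edgeR adjusted p = 0.00468), and fell in HFD-Res to 3.42 CPM (-1.11 ± 0.27, adjusted p = 0.00861) and in HFD-337 to 3.78 CPM (-1.03 ± 0.26, adjusted p = 0.00322). In HFD-338 it rose to 12.3 CPM (0.68 ± 0.22, adjusted p = 0.0214). Il1rap, the accessory chain of the IL-1 receptor, fell from 279 CPM to 140.4 CPM in HFD-338 and 171 CPM in HFD-Res (edgeR, adjusted p = 1.14e-05 and 0.000753).

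Another 33 tested genes encode further positive acute phase proteins. In HFD-NS against SD-NS 9 were higher and 1 lower, where 28.1% of all genes were called, with a median of 0.25 against -0.02 for all genes. Steap4, a metalloreductase, rose from 47.0 to 219 CPM (2.22 ± 0.40, edgeR adjusted p = 0.00205). In HFD-Res against HFD-NS 0 were higher and 7 lower (6.22% and 6.74% of all), with a median of -0.39 against 0.01, among them Serping1, the C1 inhibitor (-0.71 ± 0.11, edgeR adjusted p = 0.000251). In HFD-337 5 were higher and 11 lower (24.4% and 22.8% of all, median -0.18 against 0.03). Hpx, the haem-binding haemopexin, rose from 3342 to 6441 CPM (0.95 ± 0.19, edgeR adjusted p = 0.000624), while Fga, a fibrinogen chain, fell from 5017 to 2847 CPM (-0.82 ± 0.14, adjusted p = 0.000117). Hpx spans 8506 bases, and 40.0% of all tested genes spanning under 10 kb were called higher in HFD-337 against HFD-NS. The part of gene span in the Hpx value was not tested. In HFD-338 3 of the 33 listed genes were higher and 8 lower (18.9% and 17.9% of all, median -0.23 against 0.00).

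Negative acute phase genes, which fall in inflammation, gave 12 tested members. In HFD-338 0 were higher and 6 lower than in HFD-NS (18.9% and 17.9% of all, median -0.31 against 0.00), including Lcat, which esterifies cholesterol in lipoproteins (-0.85 ± 0.09, edgeR adjusted p = 2.22e-06). The summed hepatocyte markers, which share genes with this list, were also lower in HFD-338 (125070 to 132240 CPM against 141950 to 156630 CPM in HFD-NS) and bile duct markers higher (609 to 769 CPM against 61.5 to 75.5 CPM), and their part was not tested. In HFD-337 4 were higher and 1 lower (24.4% and 22.8% of all, median 0.23 against 0.03), and Apoa1, which encodes apolipoprotein A-I, rose from 7109 to 12070 CPM (0.76 ± 0.12, adjusted p = 5.77e-05). HFD-Res had 2 higher and 4 lower (6.22% and 6.74% of all, median 0.01 against 0.01), with Ahsg, fetuin A, rising (0.53 ± 0.12, adjusted p = 0.00522) and Alb falling from 82666 to 56127 CPM (-0.56 ± 0.16, adjusted p = 0.0243). HFD-NS against SD-NS had 3 higher and 3 lower (28.1% of all called, median -0.13 against -0.02).

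Of the 17 tested receptors and binding partners of the proteins, 8 were higher and 1 lower on the high-fat diet (28.1% of all called, median 0.39 against -0.02). Cd36, a receptor for serum amyloid A and fatty acids, rose from 70.3 to 434 CPM (2.62 ± 0.26, edgeR adjusted p = 1.76e-05), and Cd163, the macrophage receptor for haptoglobin-haemoglobin complexes, fell from 19.3 to 4.86 CPM (-2.01 ± 0.46, adjusted p = 0.00624). Cd163 fell further in HFD-338, to 0.529 CPM (-3.13 ± 0.73, edgeR adjusted p = 0.00482), on 13 counts summed over the group. It was also low in HFD-337, at a mean of 0.888 CPM (18 counts), and averaged 13.2 CPM in HFD-Res. In HFD-337 3 were higher and 9 lower than in HFD-NS (24.4% and 22.8% of all), with a median of -1.17 against 0.03. Asgr2, a subunit of the receptor that clears desialylated plasma proteins, rose (0.88 ± 0.11, adjusted p = 3.03e-06) and Cd36 fell (-1.64 ± 0.25, adjusted p = 0.000152). HFD-338 had 5 higher and 4 lower (18.9% and 17.9% of all, median 0.15 against 0.00), and HFD-Res had 0 higher and 3 lower (6.22% and 6.74% of all, median -0.33 against 0.01). The Kupffer cell markers summed to 76.5 to 171 CPM in HFD-337, 222 to 626 in HFD-338 and 217 to 269 in HFD-NS. All 10 sinusoidal endothelium markers were lower in HFD-337 than in HFD-NS (median -1.78), with sums of 91.1 to 116 CPM against 258 to 307 CPM. The part of either cell type in these counts was not tested.

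The 24 family relatives of the 10 genes, of which 18 were tested, gave 4 higher and 6 lower on the high-fat diet, where 28.1% of all genes were called (median -0.29 against -0.02). Against HFD-NS they gave 6 higher and 3 lower in HFD-337 (24.4% and 22.8% of all, median 0.12 against 0.03), 1 and 6 in HFD-338 (18.9% and 17.9%, median -0.36 against 0.00), and 1 and 3 in HFD-Res (6.22% and 6.74%, median -0.21 against 0.01). Itih5, a relative of Itih4, rose in HFD-338 from 8.90 to 67.8 CPM (2.93 ± 0.17, edgeR adjusted p = 1.58e-09), where the stellate cell and fibroblast markers also summed to 905 to 1517 CPM against 441 to 545 CPM in HFD-NS, and their part was not tested. Of the 17 glucocorticoid receptor targets, a list that includes Lcn2, 2 were higher and 3 lower on the high-fat diet (median -0.37). Against the same shares of all genes, they gave 1 and 4 in HFD-337 (median -0.21), 3 and 1 in HFD-338 (median -0.05), and 1 and 1 in HFD-Res (median -0.25).

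The genes most like each of the 10 in pattern, by the smallest root mean square difference of centred log2 CPM over the 15 libraries, included other liver plasma protein genes. Nearest to Orm1 were Itih3 (difference 0.28), Hpx (0.32) and Pdia5 (0.34), where Orm1 itself had a root mean square of 0.64. For Hp they were C4b, Tor2a and P2rx4 (0.14 to 0.16), and for Serpina3n they were Rasa3, Nfkb2 and Ces2g (0.20 to 0.23). Hp and Serpina3n themselves had root mean squares of 0.32 and 0.54. Lcn2 was followed most closely by Cxcl1, a neutrophil chemokine (0.83), Gpnmb (0.90) and Atp8b5 (0.96), and its own root mean square was 2.08. Cxcl1 averaged 1.91 CPM in SD-NS, 20.1 in HFD-NS, 26.4 in HFD-338, 68.6 in HFD-337 and 5.96 in HFD-Res.

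Nearest to Saa1 were Atp11a, A2ml1 and Bhlhe41 (0.87 to 0.96), to Saa2 Atp11a, Bhlhe41 and Adora1 (0.94 to 0.97), and to Orm2 Atp11a, A2ml1 and Smpd3 (0.73 to 0.88). These were not close matches, since Saa1, Saa2 and Orm2 themselves had root mean squares of 1.44, 1.48 and 1.46. The 10 genes themselves were left out of this ranking. Within it Atp11a came first for Saa1, Saa2 and Orm2. For Saa3 they were Hyi, Gpc1 and Grin3b (0.54 to 0.57). Itih4 had Plcl2 and Ptpn1 (0.19 and 0.21), and Crp had Rsc1a1, Rpap2 and Sephs1 (0.13 to 0.15). The root mean square was 1.10 for Saa3, 0.32 for Itih4 and 0.30 for Crp.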

How the data were processed

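Polyadenylated RNA of 15 mouse liver libraries was measured by RNA-seq. Reads were handled with featureCounts 2.0.1, STAR 2.7.10b, Bowtie 1.3.1 and Trim Galore 0.6.10 on mm39, per the submitters' processing notes. The deposited raw counts are reads per gene over exons, without strand and with reads that overlap several genes given to each, per the file headers. The deposited TPM values equalled those recomputed from the counts within 0.001 in 12 columns, and 3 columns tied to no group were not used.

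Counts were fitted in edgeR 4.0.16 (R 4.3.3) with TMM, filterByExpr and the robust quasi-likelihood test, with 15 libraries in 1 fit, 10 comparisons, and Benjamini-Hochberg adjustment over 13189 genes. The alternatives were DESeq2 1.42.0, limma 3.58.1 (voom, and log2 of TPM plus 1 or 0.1), RLE scaling, no low-count filter, the 2 groups alone, summed copies, and leaving out each library. The members and lists were chosen with earlier results of these data known. Named from each list were up to 3 genes per direction with the smallest adjusted p, no overlap and a mean of at least 1 CPM, plus 10 regulators and the Saa4, Orm3, Apcs and Serpina3 relatives whatever their result. Some genes that this rule names are not reported here.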

Additional observations from a re-analysis of the deposited data

How the results depend on the processing

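No paired analysis was possible because the groups share no replicate numbers. No estimate of the 10 genes changed sign past the threshold under any alternative run, and Saa3 and Serpina3n lost no call. The number of the 10 genes called fell from 2 to 1 in HFD-Res against SD-NS with no low-count filter, rose from 2 to 4 in HFD-Res against HFD-NS with DESeq2, and fell from 8 to 4 in HFD-337 against HFD-Res with limma-voom and with the 2 groups alone. With limma on log2(TPM + 1) and log2(TPM + 0.1) it was 1 in place of 0 in HFD-337 against HFD-NS, 1 in place of 3 in HFD-338 against HFD-NS, and 1 in place of 2 in HFD-337 against HFD-338.

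Leaving out 1 library gave 2 to 3 of the 10 genes called in HFD-NS against SD-NS, 5 to 7 in HFD-337, 4 to 5 in HFD-338 and 1 to 2 in HFD-Res, each against SD-NS. Against HFD-NS it gave 0 to 3 in HFD-337, 1 to 3 in HFD-338 and 2 to 3 in HFD-Res. It gave 1 to 3 in HFD-337 against HFD-338, 2 to 3 in HFD-338 against HFD-Res and 4 to 8 in HFD-337 against HFD-Res. Over all genes, HFD-Res against HFD-NS had 1709 calls and 1134 to 1467 with 1 library left out, the lowest without HFD-Res library 34. HFD-NS against SD-NS had 3711 and 2478 to 3278.

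TPM without TMM moved the split of calls over all genes, from 1589 higher and 2122 lower to 1984 and 1098 in HFD-NS against SD-NS, from 3214 and 3006 to 2220 and 3593 in HFD-337 against HFD-NS, and from 2490 and 2357 to 2782 and 1359 in HFD-338 against HFD-NS. It moved them from 3794 and 3907 to 2187 and 5284 in HFD-337 against HFD-338, from 3205 and 3078 to 2410 and 3739 in HFD-337 against HFD-Res, and from 2926 and 2761 to 3580 and 1778 in HFD-338 against HFD-Res. Against SD-NS it moved them from 3028 and 3396 to 4265 and 1547 in HFD-338 and from 1517 and 2026 to 2045 and 1280 in HFD-Res. The causes were not tested. Counting precision is lowest for low levels, such as Lcn2 in SD-NS with 15 to 23 counts per library.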
